A study of Mus musculus with 8 samples.

Results

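The genes described here are 38 cell cycle genes grouped by the phase in which their products act: 8 G1 cyclins and cyclin-dependent kinases, 4 Cdk inhibitors, 14 S phase genes and 12 mitotic genes. They were chosen by name from the 31890 genes on a mouse expression array, each gene being read by the brightest of its probes. Of the 38, 36 had a signal well above background on both arrays of some group and entered the fit, which held 19534 genes in all. Ccne2 (cyclin E2) and Cdk6 did not, and no change is given for them.

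The cells came from mouse embryos at E10.5 (midgestation), when blood cells bud from the walls of the large arteries. The embryos carried Tg(Ly6a-GFP), in which the regulatory sequence of Ly6a (Sca-1) drives green fluorescent protein, and had Tg(Ly6a-GFP) fathers and F1 mothers (C57BL/6 x 129S1/SVImJ). The gender was given as male. Tissue of 100 embryos, namely the aorta-gonad-mesonephros region with its umbilical and vitelline arteries, was pooled and sorted into 4 groups that were all positive for CD31, VE-cadherin and ESAM. GFP+ hematopoietic cluster cells (Kit+, 30000 cells) were compared with GFP- hematopoietic cluster cells (Kit+, 130000 cells), and GFP+ endothelial cells (Kit-, 70000 cells) with GFP- endothelial cells (Kit-, 300000 cells). The RNA of each group was divided in 2 and hybridised to 2 arrays, so a p-value here measures the spread between arrays of the same RNA and not that between embryos.

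A cell enters division when D-type cyclins with Cdk4 or Cdk6, and then E-type cyclins with Cdk2, phosphorylate the retinoblastoma protein and so free the E2F factors. Cdk inhibitors oppose these kinases. E2F factors drive genes that license replication origins and supply nucleotides in S phase, and a later set of genes, many with a promoter element called the cell cycle genes homology region (CHR) and CCAAT boxes, is transcribed as cells pass through G2 and mitosis. Whether cells of the arterial wall divide more or less as they become blood cells is the question these genes bear on. In RNA of sorted populations, fewer cells in a phase and less RNA per cell cannot be told apart.

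The promoters of some licensing and mitotic genes, with that of Cdk2, are shown first because the E2F letters were found in most licensing genes and the CHR letters in most mitotic genes. RefSeq windows on GRCm38.p6, from 250 bases before to 50 after a gene's start, were found for 32 of the 38 genes, and Ccna2, Ccnd1, Ccnd2, Ccne2, Aurkb and Mcm4 had none in the table used. Capitals in the first set mark E2F motifs, searched on both strands as TTTCCCGC, TTTCGCGC, TTTGCCGC and TTTGGCGC. The stretches are Mcm5 at chr8:75109339-75109467 (+ strand), Mcm6 at chr1:128359706-128359835 (- strand) and Cdk2 at chr10:128705052-128705211 (- strand), each written 5′ to 3′ along the gene and ending before the first base of any RefSeq transcript of that gene.
Mcm5: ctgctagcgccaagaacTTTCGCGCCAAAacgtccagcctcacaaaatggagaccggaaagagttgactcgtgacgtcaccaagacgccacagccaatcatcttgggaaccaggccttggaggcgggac
Mcm6: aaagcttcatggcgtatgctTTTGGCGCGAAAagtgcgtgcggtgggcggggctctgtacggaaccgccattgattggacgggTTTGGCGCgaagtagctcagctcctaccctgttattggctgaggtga
Cdk2: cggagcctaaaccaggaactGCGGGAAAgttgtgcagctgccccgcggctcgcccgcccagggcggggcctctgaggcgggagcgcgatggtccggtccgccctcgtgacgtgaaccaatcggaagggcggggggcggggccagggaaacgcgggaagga
Mcm5 held 2 matches that overlap on opposite strands at positions -153 and -149, counted from the start site, and Mcm6 held an overlapping pair at -110 and -106 and a single match at -47. Cdk2 held 1 match at -140. Of the licensing genes, 5 of the 6 with a window had an E2F motif (Cdc6, Mcm3, Mcm5, Mcm6 and Mcm7), against 704 of the 27025 genes in the table (2.6%). Mcm2 held none, and both matches of Mcm3 lay after the start site, at 20 and 39.

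Capitals in the second set mark the CHR, searched on both strands as TTTGAA and TTCGAA, and the CCAAT box, searched on both strands as CCAAT. The stretches are Mki67 at chr7:135716451-135716579 (- strand), Top2a at chr11:99024200-99024399 (- strand), Ccnb2 at chr9:70421555-70421734 (- strand) and Cdc20 at chr4:118437344-118437433 (- strand), with the same orientation and end.
Mki67: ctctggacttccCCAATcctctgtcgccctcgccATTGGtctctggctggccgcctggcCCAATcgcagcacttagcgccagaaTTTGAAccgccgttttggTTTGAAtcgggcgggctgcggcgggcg
Top2a: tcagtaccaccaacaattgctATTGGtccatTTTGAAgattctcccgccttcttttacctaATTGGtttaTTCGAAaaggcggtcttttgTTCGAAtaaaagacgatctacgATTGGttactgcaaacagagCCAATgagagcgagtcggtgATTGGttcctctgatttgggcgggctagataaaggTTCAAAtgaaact
Ccnb2: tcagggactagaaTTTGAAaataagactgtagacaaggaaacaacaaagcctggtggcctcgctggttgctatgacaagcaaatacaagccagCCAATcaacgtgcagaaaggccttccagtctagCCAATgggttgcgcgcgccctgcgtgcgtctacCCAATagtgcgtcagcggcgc
Cdc20: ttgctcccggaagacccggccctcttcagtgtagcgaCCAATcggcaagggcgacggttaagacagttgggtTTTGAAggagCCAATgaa
Mki67 held the CHR letters at -116 and -98, Top2a at -179, -140, -120 and -23, and Cdc20 at -18. Among the mitotic genes 8 of the 10 with a window held the CHR letters, against 21.7% of all genes, and 9 of 10 held a CCAAT box, against 41.1%. The CHR letters of Aurka, Bub1 and Plk1 lay after the start site, at 33, 15 and 31. These letters were not confined to mitotic genes: of the 6 licensing genes with a window, 5 held a CCAAT box (83.3%) and 2 the CHR letters (33.3%). None of those 10 held an E2F motif, and 0 of the 5 genes of nucleotide supply and the replication fork held either the E2F or the CHR letters in this window. A match describes the letters and does not show that a factor binds there.

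**Figure D1:**
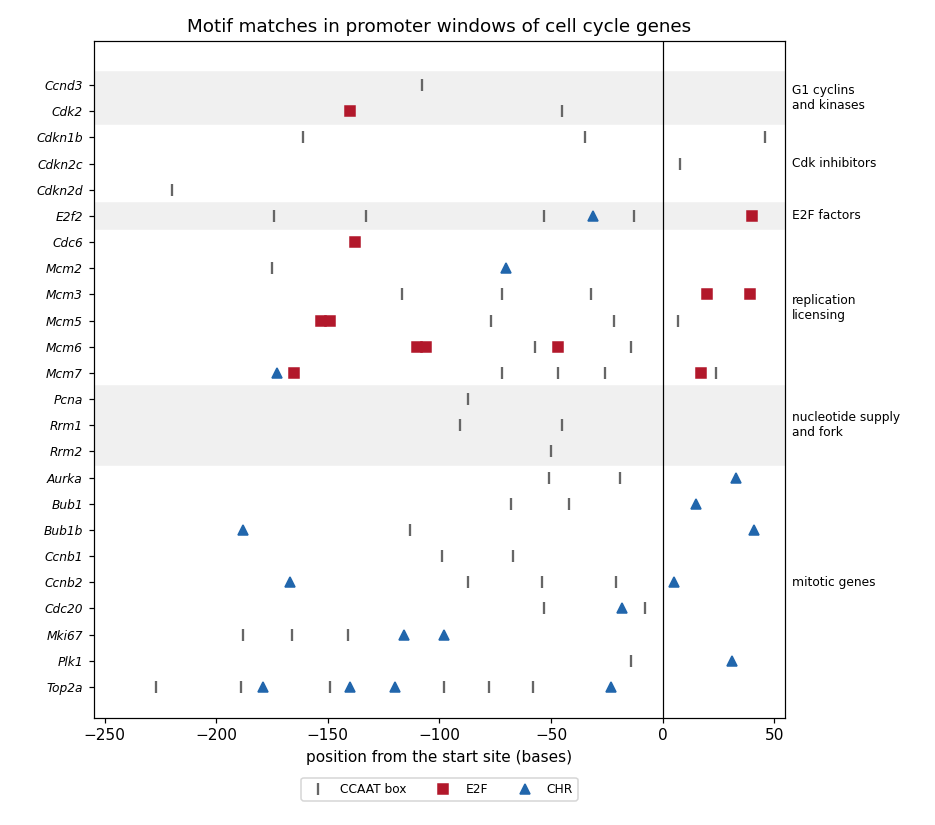
Positions of E2F motifs (squares), CHR motifs (triangles) and CCAAT boxes (ticks) from 250 bases before to 50 after the start site, for the 24 cell cycle genes with any match, grouped by role. The E2F squares lie mostly in the replication licensing genes and the CHR triangles mostly in the mitotic genes.

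Ly6a, whose regulatory sequence drives the GFP, followed the labels. Ly6a averaged -0.53 ± 0.06 in GFP+ cluster cells and -3.91 ± 0.06 in GFP- cluster cells. It averaged 0.39 ± 0.04 in GFP+ endothelial cells and -3.67 ± 0.39 in GFP- endothelial cells (log2 level ± SD, n = 2 arrays). A log2 level is the log2 signal minus the 75th percentile of that array, so 0 is the 75th percentile, and levels of different genes are not compared. Kit was higher in cluster cells and the endothelial genes were present in all groups, though not at equal levels. Of 10 endothelial genes, 0 were higher and 9 lower in GFP+ cluster than in GFP+ endothelial cells (median -0.63). Of 12 blood cell genes, 10 were higher and 0 lower in GFP+ than in GFP- cluster cells (median 1.89). In endothelial cells 7 of these were higher and 1 lower in GFP+ cells (median 0.55). The share of spots well above background ran from 55.43% to 64.52% over the 8 arrays. Marker genes of other cells differed between the groups. The summed linear level of 17 erythroid genes ran from 105.4 to 108.1 in GFP+ cluster cells and from 837.2 to 871.6 in GFP- cluster cells, and from 117 to 124.1 in GFP+ endothelial cells and from 523.8 to 544.9 in GFP- endothelial cells (1 being the 75th percentile signal). That of 13 macrophage genes ran from 35.55 to 36.24 in GFP+ cluster cells and from 12.34 to 12.74 in GFP- cluster cells, and from 12.39 to 12.93 in GFP+ endothelial cells and from 5.744 to 5.83 in GFP- endothelial cells. Of the 16 erythroid genes tested, 15 were lower in GFP+ cells of either class, and all 13 macrophage genes were higher. Of 7 megakaryocyte genes, 6 were higher and 0 lower in GFP+ cluster cells (median 0.82), while 1 was higher and 4 lower in GFP+ endothelial cells (median -0.87), and the difference between these GFP effects was positive for all 7 (median 1.41). Their summed level ran from 10.13 to 10.42 in GFP+ cluster cells and from 5.639 to 5.641 in GFP- cluster cells, and from 9.44 to 10.08 in GFP+ endothelial cells and from 19.35 to 19.57 in GFP- endothelial cells. Of 10 mesenchyme genes, 7 were lower and 1 higher in GFP+ cells of either class (medians of -0.94 in cluster and -0.53 in endothelial cells). The part of all these cells in the cell cycle results below was not tested.

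Most members called by GFP were lower in the GFP+ cells after scaling to the 75th percentile. In endothelial cells, however, the balance turned in the authors' normalized table and under quantile normalization, each with 11 higher and 7 lower. Of all 19534 genes in endothelial cells, 4098 were higher and 4383 lower under quantile normalization, and 4114 and 4379 in the authors' normalized table. After the 75th percentile scaling 1 of 36 members rose and 14 fell in cluster cells, where 11.8% of all genes tested rose and 20.9% fell. The median member there changed by -0.15 on the log2 scale against -0.08 for all genes. In endothelial cells 4 rose and 15 fell, where 18.2% of all genes rose and 33.4% fell, and the median was -0.16 against -0.13. The members called made up 41.7% in cluster cells, beside 32.8% of all genes. They made up 52.8% in endothelial cells, beside 51.5%, so the share there was near that of the array as a whole. The larger share in cluster cells depended on the scaling. Under quantile normalization 4 of 36 members rose and 8 fell in cluster cells, beside 31% of all genes called. The authors' normalized values gave 4 and 7, also beside 31%, so the share was near that of all genes under both. Centring on the median of tested genes left 1 and 13, beside 31.4%. A call is a Benjamini-Hochberg adjusted p under 0.05 over all genes in limma. By group mean, the highest of the 4 groups was GFP- endothelial cells for 17 of the 36 genes and GFP- cluster cells for 10. The lowest was GFP+ endothelial cells for 16 and GFP+ cluster cells for 14. All genes leaned the same way under this scaling, with 38.1% above 0 in GFP+ against GFP- cluster cells and 37% in endothelial cells. The groups were not ranked over all genes, so this order is not shown to be particular to the members.

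**Figure D2:**
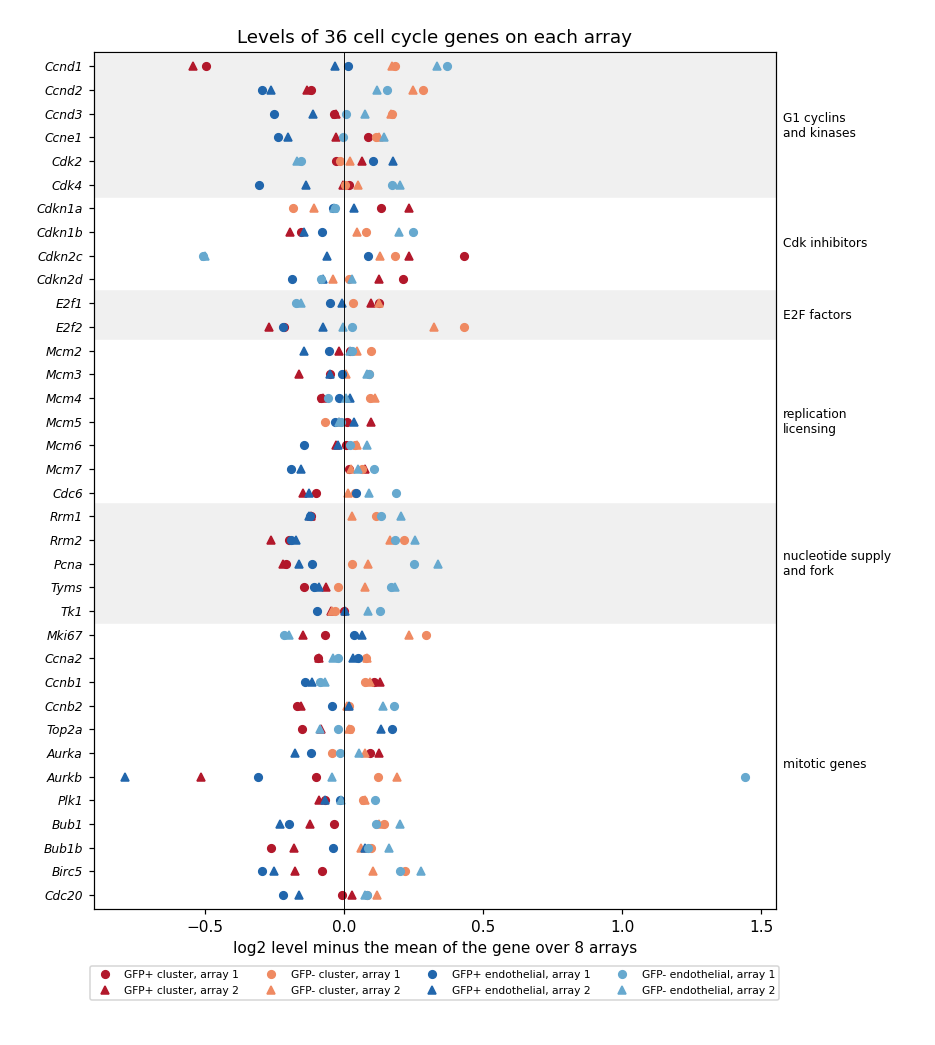
Log2 level of each of the 36 tested genes on each of the 8 arrays, as the difference from that gene's mean over all arrays, grouped by role. Circles are array 1 and triangles array 2 of a group, and within a group their SD was 0.03 at the median and 0.138 at most over 35 genes, with Aurkb, left out of these, spread more widely.

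Of the D-type cyclins, which start the G1 kinases, Ccnd1 and Ccnd2 fell in GFP+ cells of both classes. Ccnd1 (cyclin D1, probe at chr7:152116202-152116261 on mm9, - strand) had log2 levels of 2.64 and 2.59 in GFP+ cluster cells and 3.32 and 3.31 in GFP- cluster cells. It had 3.15 and 3.10 in GFP+ endothelial cells and 3.51 and 3.47 in GFP- endothelial cells. No group overlapped another, and GFP+ cluster cells were the lowest. Ccnd1 fell by 0.70 ± 0.05 (SE) in GFP+ cluster cells (0.617-fold, limma adjusted p = 0.000264) and by 0.36 ± 0.05 in GFP+ endothelial cells (0.779-fold, adjusted p = 0.00203). Ccnd2 (cyclin D2) had 2.53 and 2.52 in GFP+ cluster cells against 2.93 and 2.90 in GFP- cluster cells, and 2.36 and 2.39 in GFP+ endothelial cells against 2.80 and 2.77 in GFP- endothelial cells. Here the lowest group was GFP+ endothelial cells. Ccnd2 fell by 0.39 ± 0.04 in cluster cells (adjusted p = 0.00165) and by 0.41 ± 0.04 in endothelial cells (adjusted p = 0.00113). Ccnd3 (cyclin D3) fell in endothelial cells (-0.22 ± 0.06, adjusted p = 0.0259) and did not pass in cluster cells (-0.20 ± 0.06, adjusted p = 0.0516). Under quantile normalization its endothelial change was positive (0.12, adjusted p = 0.151) and its cluster change was -0.02 (adjusted p = 0.821).

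Of cyclin E1 and the kinases, all 3 tested passed in endothelial cells and none in cluster cells, but the difference between the classes was not called for Ccne1 (interaction 0.20 ± 0.10, adjusted p = 0.17) and was lost under quantile normalization for Cdk2 and Cdk4 (adjusted p = 0.0566 and 0.104). In cluster cells none of Ccne1, Cdk2 and Cdk4 passed, with changes from -0.09 (Ccne1) to 0.01 (Cdk2). In endothelial cells Cdk2, the partner of cyclins E and A, rose: it had 0.42 and 0.49 in GFP+ cells against 0.16 and 0.15 in GFP- cells (0.30 ± 0.05, adjusted p = 0.00632). Cdk4, the partner of D-type cyclins, had 5.39 and 5.56 in GFP+ endothelial cells against 5.87 and 5.90 in GFP- endothelial cells and fell by 0.41 ± 0.07 (adjusted p = 0.00469). Its other 2 probes showed smaller differences of -0.16 and -0.08, and quantile normalization left -0.08 (adjusted p = 0.258). Ccne1 fell by 0.29 ± 0.07 in endothelial cells (adjusted p = 0.0164), but its other probe read 0.34 there, so the direction of Ccne1 rests on the probe. Over the G1 cyclins and kinases, 0 rose and 2 of 6 fell in cluster cells (limma; 0 and 3 at an unadjusted p under 0.05), with a median of -0.15. In endothelial cells 1 rose and 5 fell, with a median of -0.33, which differed from that of all genes by -0.20. Of all genes tested, 11.8% rose and 20.9% fell in cluster cells, and 18.2% rose and 33.4% fell in endothelial cells.

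The 4 Cdk inhibitors did not move as 1 set. Cdkn1a (p21, an inhibitor of Cdk2 complexes induced by p53) had -1.34 and -1.24 in GFP+ cluster cells and -1.66 and -1.58 in GFP- cluster cells. It was the only member called higher in GFP+ cluster cells (0.33 ± 0.06, 1.26-fold, adjusted p = 0.00938), and the call was lost without the first GFP- cluster array. A second, dim probe of Cdkn1a read -0.09, and with the mean of both probes Cdkn1a was not called (0.12, adjusted p = 0.526). In endothelial cells its arrays overlapped, with -1.51 and -1.44 in GFP+ cells and -1.51 and -1.51 in GFP- cells (0.03 ± 0.06, adjusted p = 0.65). Cdkn2c (p18, an inhibitor of Cdk4 and Cdk6) had -2.99 and -3.14 in GFP+ endothelial cells against -3.59 and -3.58 in GFP- endothelial cells. It rose by 0.52 ± 0.08 there (1.43-fold, adjusted p = 0.00473) and read 0.17 ± 0.08 in cluster cells (adjusted p = 0.171). This probe was dim, and normexp background correction turned its endothelial value to -0.57 (adjusted p = 0.482). Cdkn1b (p27, a binder of cyclin E and D complexes) was lower in GFP+ cells: 0.96 and 0.93 in GFP+ cluster cells against 1.20 and 1.17 in GFP- cluster cells, and 1.04 and 0.98 in GFP+ endothelial cells against 1.37 and 1.32 in GFP- endothelial cells. It fell by 0.24 ± 0.05 in cluster cells (adjusted p = 0.0146) and by 0.33 ± 0.05 in endothelial cells (adjusted p = 0.00307), while a dimmer second probe read 0.13 and -0.10. Cdkn2d (p19) did not pass in either class, with 0.18 ± 0.07 in cluster cells and -0.10 ± 0.07 in endothelial cells. Under quantile normalization Cdkn2d was called higher in GFP+ cluster cells (0.25, limma adjusted p = 0.029). So 1 of 4 rose and 1 fell in each class.

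**Figure D3:**
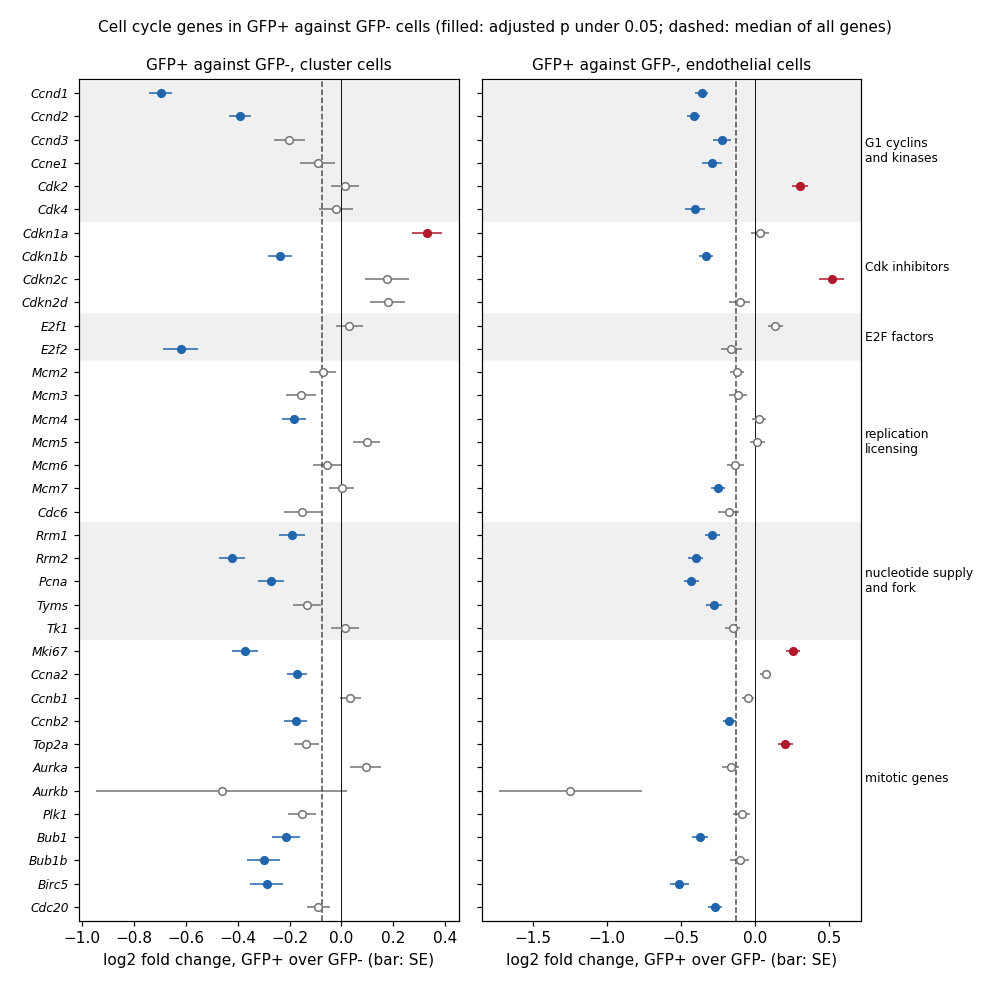
Log2 fold change of GFP+ over GFP- cells for the 36 tested genes in cluster cells (left) and endothelial cells (right), with standard errors, filled where the adjusted p is under 0.05, on axes that differ between the panels. The dashed line is the median of all genes tested (-0.08 in cluster cells and -0.13 in endothelial cells). Ccnd1, at -0.70, lies farthest below 0 in cluster cells, while Mki67 lies at -0.37 in cluster cells and 0.26 in endothelial cells.

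E2f2, a transcription factor that activates S phase genes, was far lower in GFP+ cluster cells than in GFP- cluster cells. It had 1.53 and 1.47 in GFP+ cluster cells and 2.17 and 2.07 in GFP- cluster cells, which was the highest of the 4 groups. It fell by 0.62 ± 0.07 (0.651-fold, adjusted p = 0.00169). In endothelial cells it had 1.52 and 1.67 in GFP+ cells and 1.77 and 1.74 in GFP- cells and did not pass (-0.16 ± 0.07, adjusted p = 0.0986). E2f1, another activator, did not pass in cluster cells (0.03 ± 0.05) or endothelial cells (0.14 ± 0.05, adjusted p = 0.0676). Under quantile normalization its endothelial change was called higher (0.16, limma adjusted p = 0.0449). Erythroid genes were also highest in GFP- cluster cells, as given above, and their part in the E2f2 level was not tested.

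Of the 7 licensing genes, 5 of which held E2F letters in the promoter window, 1 was called in each class. Of all genes, 32.8% were called in cluster cells and 51.5% in endothelial cells. Mcm2 to Mcm7 encode the 6 subunits of the replicative helicase and Cdc6 its loader. In cluster cells 0 rose and 1 of 7 fell (limma; 0 and 2 at an unadjusted p under 0.05), which was Mcm4 (4.44 and 4.45 in GFP+ cells against 4.61 and 4.64 in GFP- cells, -0.18 ± 0.05, adjusted p = 0.0287). The other 6 ran from -0.16 (Mcm3) to 0.10 (Mcm5). In endothelial cells 0 rose and 1 fell (0 and 2 at an unadjusted p under 0.05 in limma), which was Mcm7 (4.04 and 4.08 in GFP+ cells against 4.34 and 4.28 in GFP- cells, -0.25 ± 0.05, adjusted p = 0.00815), and the other 6 ran from -0.18 (Cdc6) to 0.03 (Mcm4). The median of the 7 was -0.07 in cluster cells and -0.12 in endothelial cells, which differed from that of all genes by 0.00493 and 0.00634. Mcm5, with the overlapping E2F pair, had 3.64 and 3.73 in GFP+ cluster cells and 3.56 and 3.61 in GFP- cluster cells, and 3.596 and 3.667 in GFP+ endothelial cells and 3.619 and 3.613 in GFP- endothelial cells. Its endothelial groups overlapped. These directions depend on the scaling: under quantile normalization Mcm3, Mcm4, Mcm5 and Mcm6 were all called higher in GFP+ endothelial cells (0.23, 0.31, 0.24 and 0.20), and neither Mcm4 in cluster cells nor Mcm7 in endothelial cells was called (-0.05 and -0.02). Mcm5 was called higher in GFP+ cluster cells as well (0.21, limma adjusted p = 0.0367).

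Of the 5 genes that make deoxynucleotides or act at the replication fork, 3 fell in cluster cells and 4 in endothelial cells, where 20.9% and 33.4% of all genes fell, and under quantile normalization the calls of Pcna and Rrm1 in both classes and of Rrm2 in endothelial cells were lost. Rrm2, the regulated subunit of ribonucleotide reductase, had 4.27 and 4.20 in GFP+ cluster cells against 4.68 and 4.63 in GFP- cluster cells, and 4.28 and 4.29 in GFP+ endothelial cells against 4.65 and 4.72 in GFP- endothelial cells. In each class both GFP+ arrays lay below both GFP- arrays. Rrm2 fell by 0.42 ± 0.05 in cluster cells (0.747-fold, adjusted p = 0.00239) and by 0.40 ± 0.05 in endothelial cells (0.757-fold, adjusted p = 0.00208), the second becoming -0.14 (adjusted p = 0.0539) under quantile normalization. Pcna, the sliding clamp of DNA polymerase, had 5.03 and 5.02 in GFP+ cluster cells against 5.27 and 5.33 in GFP- cluster cells, and 5.13 and 5.08 in GFP+ endothelial cells against 5.49 and 5.58 in GFP- endothelial cells. It fell by 0.27 ± 0.05 (adjusted p = 0.0113) and by 0.43 ± 0.05 (adjusted p = 0.00167). Neither Pcna call held under quantile normalization (-0.11 in each class). Rrm1, the other subunit of the reductase, fell in both classes (-0.19 and -0.29), with -0.07 in each under quantile normalization (adjusted p = 0.308 and 0.271), and its cluster call held under none of the 3 other scalings. Tyms, which makes thymidylate, fell in endothelial cells (-0.28 ± 0.05, adjusted p = 0.00882) and read -0.13 ± 0.05 in cluster cells. Tk1, the salvage kinase for thymidine, passed in neither (0.01 and -0.15). Of the 5, 0 rose in either class (limma; 0 also at an unadjusted p under 0.05).

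Calls of mitotic genes went both ways in endothelial cells, as did those of all genes. Mki67, which encodes the Ki-67 protein of dividing cells, had 4.79 and 4.71 in GFP+ cluster cells and 5.16 and 5.09 in GFP- cluster cells. It had 4.90 and 4.92 in GFP+ endothelial cells and 4.64 and 4.66 in GFP- endothelial cells. No groups overlapped, and the order of GFP+ and GFP- cells was opposite in the 2 classes. Mki67 fell by 0.37 ± 0.05 in GFP+ cluster cells (0.773-fold, adjusted p = 0.00348) and rose by 0.26 ± 0.05 in GFP+ endothelial cells (1.19-fold, adjusted p = 0.00852). A second probe of Mki67 read -0.32 and 0.30. Top2a, the topoisomerase that untangles replicated chromosomes, rose in GFP+ endothelial cells, with 2.54 and 2.50 against 2.35 and 2.28 in GFP- cells (0.21 ± 0.05, adjusted p = 0.0175), and read -0.14 ± 0.05 in cluster cells (adjusted p = 0.0891). The promoters of both genes are printed above.

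Among the other mitotic genes the calls by GFP were all lower in GFP+ cells, and several rested on the scaling. Birc5 (survivin, of the chromosomal passenger complex) had 5.47 and 5.37 in GFP+ cluster cells against 5.77 and 5.65 in GFP- cluster cells, and 5.25 and 5.30 in GFP+ endothelial cells against 5.75 and 5.83 in GFP- endothelial cells. It fell by 0.29 ± 0.06 (adjusted p = 0.0204) and by 0.51 ± 0.06 (adjusted p = 0.00202), with differences of -0.11 to -0.19 on its other 2 probes, and its cluster call was lost under quantile normalization (-0.15, adjusted p = 0.116). Bub1, a checkpoint kinase, fell in both classes (-0.21 and -0.37). Bub1b (BubR1), its partner in the checkpoint, fell in cluster cells (-0.30 ± 0.06, adjusted p = 0.0165) and read -0.10 in endothelial cells. Cdc20, the activator of the anaphase-promoting complex, fell in endothelial cells (-0.27 ± 0.04, adjusted p = 0.00504), where quantile normalization left 0.002154, and read -0.09 in cluster cells. Of the cyclins, Ccnb2 fell in both classes (-0.18 and -0.17), and under quantile normalization neither call held (-0.06 in cluster and 0.04 in endothelial cells). Ccna2, with Cdk2 and Cdk1 as partners, fell in cluster cells (-0.17 ± 0.04, adjusted p = 0.0225), a call lost under quantile normalization (-0.07, adjusted p = 0.254), where its endothelial change was called higher instead (0.20, adjusted p = 0.0119). Ccnb1 passed in neither, and its 3 probes differed in sign. Under quantile normalization Ccnb1 was called higher in both classes (0.16 in each, limma adjusted p = 0.0312 in cluster and 0.0278 in endothelial cells). Aurka and Plk1, kinases of the mitotic spindle, passed in neither class. Aurkb was near background: it was not well above background on either GFP+ cluster array, and its 2 GFP- endothelial arrays lay far apart (-3.15 and -4.64). Its bound was at least 1.19-fold lower in GFP+ than in GFP- cluster cells, but no difference was called (-0.46 ± 0.48, limma adjusted p = 0.519). In endothelial cells Aurkb was not called either (-1.25 ± 0.48, limma adjusted p = 0.0754). Over the 12 mitotic genes 0 rose and 6 fell in cluster cells (limma, with 0 and 8 at an unadjusted p under 0.05), where 11.8% of all genes rose and 20.9% fell. Their median was -0.17. In endothelial cells 2 rose and 4 fell, where 18.2% of all genes rose and 33.4% fell. The median there was -0.14 and became 0.02 under quantile normalization.

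**Figure D4:**
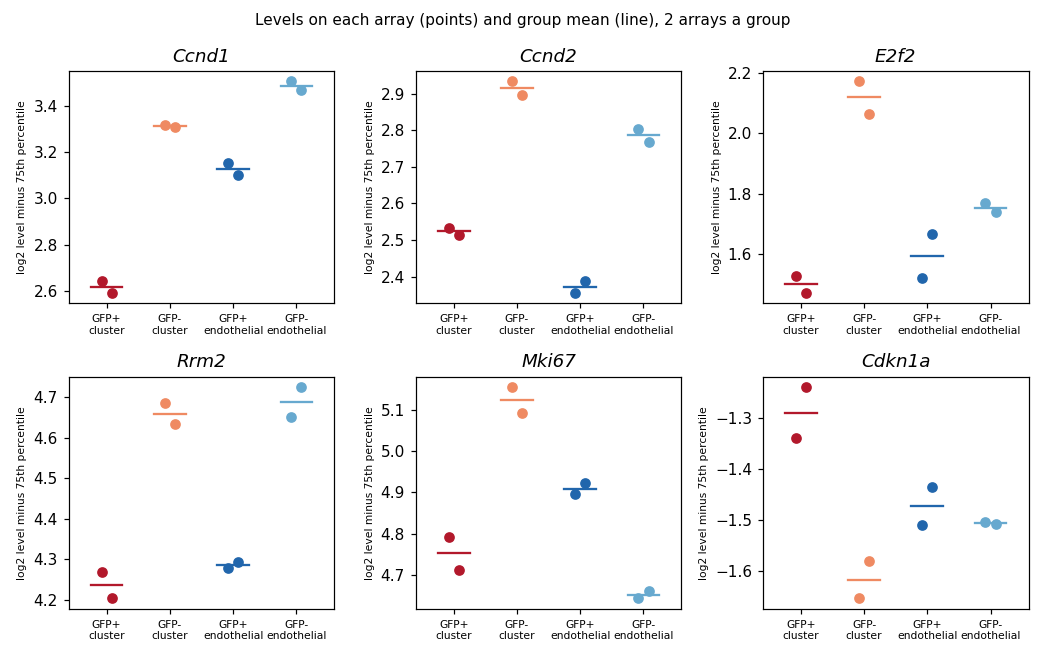
Log2 levels of Ccnd1, Ccnd2, E2f2, Rrm2, Mki67 and Cdkn1a on each array (points) with the mean of the 2 arrays (line), for cluster cells (GFP+ left of GFP-) and then endothelial cells (likewise). The axes do not start at 0 and differ between panels. In cluster cells both GFP+ arrays lie below both GFP- arrays for all but Cdkn1a, and in endothelial cells Mki67 is the gene of the 6 whose GFP+ arrays lie above the GFP- arrays without overlap.

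The scaling of the arrays mattered more in endothelial than in cluster cells. In endothelial cells the median of all genes was -0.13 after scaling to the 75th percentile and -0.04 after quantile normalization, and the share of all called genes that were higher in GFP+ cells was 35.3% and 48.3%. The 18 brighter of 35 member probes shifted upwards by a median of 0.27 between these scalings, and the 17 dimmer by 0.04 (Aurkb left out). In cluster cells the shifts were 0.13 and 0.04. Under quantile normalization members called higher and lower in endothelial cells numbered 11 and 7 (4 and 15 above), and in cluster cells 4 and 8 (1 and 14 above). All genes called higher and lower were then 4098 and 4383 in endothelial cells and 2676 and 3380 in cluster cells, of 19534 tested. The calls of 8 of the 15 members in cluster cells and 11 of the 19 in endothelial cells held under quantile normalization, the authors' normalized table and centring on the median of tested genes. In cluster cells they were Cdkn1a (higher) and Ccnd1, Ccnd2, Cdkn1b, E2f2, Rrm2, Mki67 and Bub1b (lower). In endothelial cells they were Cdk2, Cdkn2c, Mki67 and Top2a (higher) and Ccnd1, Ccnd2, Ccne1, Cdkn1b, Tyms, Bub1 and Birc5 (lower). Quantile normalization and the authors' table gave near-identical values (Ccnd1 in cluster cells -0.6206 and -0.6199). Centring shifts all genes of an array alike, so the 3 scalings are not separate checks. Leaving out 1 array reduced the 14 lower members of cluster cells to 6 without the second GFP+ array or either GFP- array and to 9 without the first GFP+ array. The calls of Ccnd1, Ccnd2, E2f2, Rrm2 and Mki67 in cluster cells held through all 3 scalings and all 8 omissions, as did 9 calls in endothelial cells (Ccnd1, Ccnd2, Cdk2, Cdkn1b, Cdkn2c, Tyms, Mki67, Bub1 and Birc5). With normexp background correction 0 members passed in either class (limma, with 0 higher and 2 lower in cluster cells and 1 higher and 2 lower in endothelial cells at an unadjusted p under 0.05), and the endothelial change of Ccnd1 was 0.02.

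**Figure D5:**
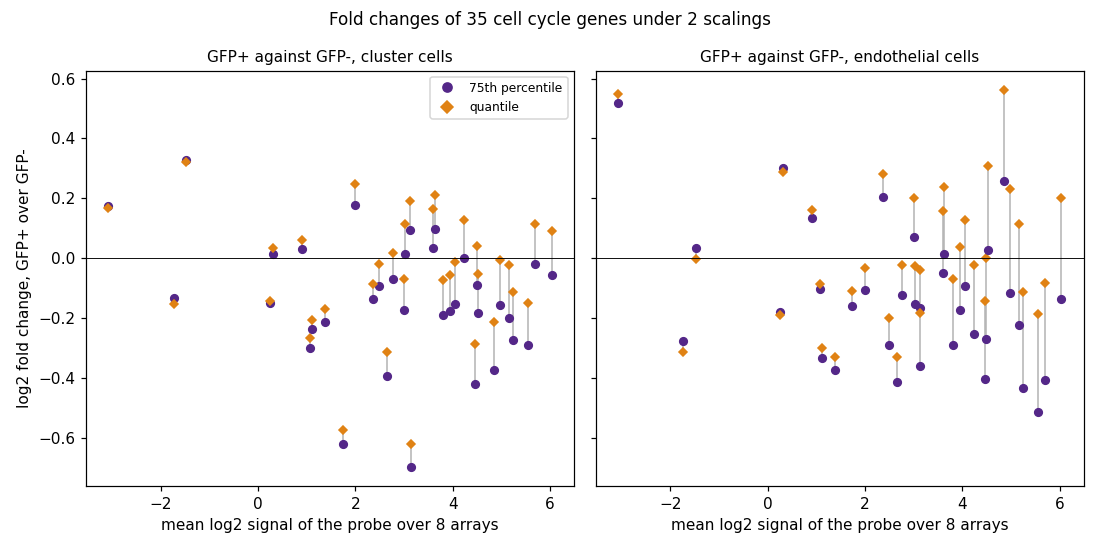
Log2 fold change of GFP+ over GFP- cells for 35 cell cycle genes (Aurkb left out) after scaling to the 75th percentile (circles) and after quantile normalization (diamonds), in cluster cells (left) and endothelial cells (right), plotted against the probe's mean log2 level over the 8 arrays (0 is the 75th percentile). The 2 values of a gene are joined by a line, and the lines are longer for brighter probes in endothelial cells, where the median shift of the 18 brighter probes was 0.27.

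Cluster cells were next compared with endothelial cells at the same GFP state. Among GFP+ cells 10 members were higher and 6 lower in cluster cells, where 26.1% of all genes were higher and 24.2% lower (50.3% in either direction), and the median of the members was 0.04 against 0.03. Ccnd1 was lower in GFP+ cluster cells than in GFP+ endothelial cells (-0.51 ± 0.05, 0.702-fold, adjusted p = 0.000563), and Ccnd2 was higher (0.15 ± 0.04, adjusted p = 0.0309). Ccne1 (0.25) and Cdk4 (0.23) were higher as well, each with another probe of the opposite sign (-0.09 and -0.12). Of the inhibitors, Cdkn1a (0.18), Cdkn2c (0.32) and Cdkn2d (0.30) were higher, but Cdkn1a held under none of the 3 other scalings and Cdkn2c was not called under quantile normalization (0.17, adjusted p = 0.287) or in the authors' normalized table (0.17, adjusted p = 0.29). Among the mitotic genes Ccnb1 (0.25), Aurka (0.26) and Cdc20 (0.20) were higher, while Top2a (-0.27), Bub1b (-0.24), Mki67 (-0.16), Ccnb2 (-0.15) and Ccna2 (-0.13) were lower. Ccnb2 and Ccna2 were not called under quantile normalization (-0.11 and -0.09, limma adjusted p = 0.0911 and 0.123) or in the authors' normalized table. The calls of Mki67, Ccnb2 and Ccna2 were lost in every omission of 1 array. In the S phase genes 1 of 14 passed, Mcm7 (0.22 ± 0.05, adjusted p = 0.0129). The calls of Ccnd1, Ccnb1 and Top2a held through all 3 scalings and all 8 omissions, but another probe of Ccnb1 read -0.23. The counts were smaller without 1 array: 3 higher and 3 lower without the first GFP+ endothelial array, 4 and 3 without the second GFP+ cluster array, 5 and 2 without the first GFP+ cluster array, 6 and 2 without the second GFP+ endothelial array, 6 and 3 without either GFP- cluster array, and 8 and 3 without either GFP- endothelial array.

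Among GFP- cells fewer members differed between cluster and endothelial cells: 5 were higher and 2 lower in cluster cells, where 11.9% of all genes were higher and 12.4% lower (24.3% in either direction). In the authors' normalized table, and likewise under quantile normalization, 10 members were higher and 1 lower. Of all 19534 genes, 2038 were higher and 1845 lower in the authors' normalized table, and 2023 and 1828 under quantile normalization. Cdkn2c was higher in cluster cells, with -2.90 and -2.95 against -3.59 and -3.58 in endothelial cells (0.66 ± 0.08, 1.58-fold, adjusted p = 0.00612), and under normexp correction read -0.45. Mki67 was higher, with 5.16 and 5.09 in cluster cells against 4.64 and 4.66 in endothelial cells (0.47 ± 0.05, 1.39-fold, adjusted p = 0.00352). Both E2F factors were higher in cluster cells, E2f2 by 0.37 ± 0.07 (adjusted p = 0.0172) and E2f1 by 0.24 ± 0.05 (adjusted p = 0.0226). Ccnb1 was also higher (0.16), but was not called after centring on the median of tested genes (0.12, limma adjusted p = 0.0804). Its call was lost in every omission of 1 array, and another of its probes read -0.10. Pcna (-0.24) and Ccnd1 (-0.17) were lower, both without a call under quantile normalization (-0.06 and -0.05). The share of all called genes that were higher in cluster cells was 48.8% and became 36.2% after centring on the median of tested genes. Erythroid genes differed the same way between these groups (all 16 tested were higher in GFP- cluster cells), and their part in these results was not tested. Without either GFP- cluster array, or either GFP- endothelial array, 2 members were higher and 0 lower (limma; at an unadjusted p under 0.05 there were 5 higher and 3 lower without the first GFP- cluster array), and without any other array 4 were higher and 1 lower.

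The difference between the 2 GFP effects was tested as the interaction, cluster minus endothelial. It passed for 9 of 36 members, 3 higher and 6 lower, where 15.7% of all genes were higher and 15.5% lower (31.1% in either direction). Mki67 had the lowest p of the 9 (-0.63 ± 0.07, adjusted p = 0.00381), and its call held through all 3 scalings and all 8 omissions, with values from -0.67 to -0.59 when 1 array was left out. Top2a (-0.34 ± 0.07), Ccna2 (-0.24 ± 0.06), Ccnd1 (-0.34 ± 0.06) and E2f2 (-0.46 ± 0.10) also had a more negative GFP effect in cluster than in endothelial cells under all 3 scalings, and Cdkn1a (0.29 ± 0.08) a more positive one. Unlike that of Mki67, none of these calls held through all 8 omissions. That of Ccna2 was lost in every omission (values from -0.25 to -0.23) and that of Cdkn1a in most (0.24 to 0.35). Cdk2, Cdk4 and Mcm7 were called after the 75th percentile scaling and not under quantile normalization. The GFP effects of Rrm2 and Ccnd2, which fell in both classes, had interactions of -0.02 ± 0.07 (adjusted p = 0.852) and 0.02 ± 0.06 (adjusted p = 0.801). The 6 lower calls numbered 1 without the first GFP- cluster array, 2 without the second GFP- endothelial or the first GFP+ endothelial array, 3 without the second GFP- cluster or the first GFP- endothelial array, 4 without the second GFP+ cluster or the second GFP+ endothelial array, and 5 without the first GFP+ cluster array. The 3 higher calls numbered 0 or 1 in each case (limma; without the first GFP- cluster array 5 members were higher and 7 lower at an unadjusted p under 0.05).

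A wider list held 117 other cell cycle genes, of which 115 were tested. In cluster cells 4 rose and 32 fell with GFP, where 11.8% of all genes rose and 20.9% fell, and the median was -0.12 against -0.08 for all genes. In endothelial cells 13 rose and 45 fell, where 18.2% rose and 33.4% fell, and the median of -0.119 was not below that of all genes (-0.129). Under quantile normalization these counts were 6 and 16, and 19 and 35. Of all 19534 genes, 2676 then rose and 3380 fell in cluster cells, and 4098 rose and 4383 fell in endothelial cells. Of the 13 other Cdk inhibitors and growth arrest genes tested, 1 rose and 5 fell in GFP+ cluster cells, with a median of -0.11. The 1 that rose was Cdkn1c (p57, an inhibitor linked to quiescence of blood stem cells), by 0.41 ± 0.05 (adjusted p = 0.00213). Gadd45a, a stress-induced arrest gene, fell by 0.86 ± 0.07 (adjusted p = 0.000599). Cdc25b, the phosphatase that activates Cdk1 at mitotic entry, fell by 0.64 ± 0.05 in GFP+ cluster cells (adjusted p = 0.000547), and Gins2, of the replicative helicase, fell by 0.45 ± 0.07. Cdc7, the kinase that fires origins, rose by 0.45 ± 0.05 (adjusted p = 0.00185). In endothelial cells Cdk1 fell by 0.52 ± 0.08 (adjusted p = 0.00378), Cks1b, a Cdk-binding protein, by 0.65 ± 0.05, and Gins2 by 0.73 ± 0.07. Cenpf, a kinetochore protein, rose by 0.87 ± 0.09 in GFP+ endothelial cells (adjusted p = 0.000958), and its interaction was -1.01 ± 0.12 (adjusted p = 0.00448). Rbl1 (p107, of the retinoblastoma family) rose by 0.44 ± 0.04. These named calls held under all 3 other scalings, of which quantile normalization and the authors' table gave near-identical values. Interactions of mitotic genes ran both ways: over the 45 other mitotic genes 5 were called higher and 9 lower, where 15.7% of all genes were higher and 15.5% lower. Those of Cit, a kinase of cytokinesis (0.57 ± 0.11, adjusted p = 0.0156), and Melk, a kinase of dividing cells (0.43 ± 0.07, adjusted p = 0.00898), were positive. Between the classes, Cdc7 was higher in cluster cells among GFP+ cells (0.93 ± 0.05) and GFP- cells (0.39 ± 0.05). Cdkn2a and Cdkn2b, 2 further Cdk inhibitors, were too dim to be tested.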

How the data were processed

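RNA of 4 sorted groups was measured on 8 one-colour Agilent arrays, 2 per group, after amplification with the Ovation RNA-Seq System V2 and labelling of 50 ng with Cy3, per the labels' protocols. Feature Extraction 10.10.1.1 is named in the submitters' processing notes. The deposited intensity values used here are each spot's processed signal, background-corrected by the scanner software per the file headers, and, for an alternative, its mean and local background signals. The authors also deposited normalized intensity values by a method not given in the sources used here. Beside the scanner values they are linear, follow the spots' order (r of log2 values 0.9974 to 0.9997), and have a median of 198 in each column. Results from them lay close to those of quantile normalization (6058 and 6056 genes called by GFP in cluster cells), so the 2 are not independent.

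The log2 processed signal minus the array's 75th percentile was used (percentiles of 708.287 to 1476.62 signal units, no saturated spot, and 54.62% to 63.69% of probes well above background). Control spots and outlier flags were left out and spots of a probe averaged, giving 39419 probes, of which 51 belong to the 38 members. A gene was read by its brightest probe and tested if both arrays of some group read it well above background. One fit in limma 3.58.1 (R 4.3.3; files read with data.table, version 1.17.8) over 8 arrays, with 4 group means and 4 residual degrees of freedom, gave 5 contrasts, two-sided, Benjamini-Hochberg adjusted over 19534 genes, with a threshold of 0.05. The fit was tested on simulated data. The number of arrays limits the precision. A gene dim in a group has a bound: its dim side is taken, on each array, as the larger of its own signal and the lowest signal well above background. Probe coordinates are mm9, as in the files.

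The members and lists were chosen with earlier results of these data known. All 38 members were named, and of the other cell cycle genes those with the 2 largest called changes each way per list, plus Cdkn1c and Cdk1; a part of these is printed. Array 1 of every group lay on 1 slide and array 2 on another; replicate differences of the groups correlated over genes with r between 0.139 and 0.359, every pair exceeding 0.1, so the numbers pair the arrays. The position on a slide and the group cannot be told apart. The alternatives were quantile normalization, normexp correction (offset 50), the authors' normalized values, dropping or tightening the filter on dim probes, averaging the probes of a gene, the slide as a block, moderation with trend and robust, fits of the compared groups alone, each array left out, the differences within a slide and, chosen after seeing the data, centring on the median of tested genes.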

Additional observations from a re-analysis of the deposited data

Results flagged for a closer look

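The effect of GFP differed between cluster and endothelial cells for 9 of the 36 tested members by the interaction term of the limma fit over all genes, given here as the cluster effect minus the endothelial effect. This term was called for 31.1% of all genes tested, a larger share than among the members. It was negative for Mki67 (-0.63, adjusted p = 0.00381), E2f2 (-0.46, adjusted p = 0.0194), Top2a (-0.34, adjusted p = 0.0181), Ccnd1 (-0.34, adjusted p = 0.0149), Cdk2 (-0.29, adjusted p = 0.0365) and Ccna2 (-0.24, adjusted p = 0.0248). It was positive for Cdk4 (0.39, adjusted p = 0.0286), Cdkn1a (0.29, adjusted p = 0.0432) and Mcm7 (0.25, adjusted p = 0.0392). Mki67 is the one whose own GFP effects passed with opposite signs, -0.37 in cluster cells and 0.26 in endothelial cells. Under quantile normalization the interaction of Cdk2 was -0.25 (adjusted p = 0.0566), that of Cdk4 0.20 (adjusted p = 0.104) and that of Mcm7 0.15 (adjusted p = 0.144), so these 3 are not called there. The other probes of Cdk4 read 0.09 and -0.05 and the other probe of Mki67 -0.61. All 9 had the same sign on both slides, but these hold the arrays that gave the calls, so this is no separate evidence.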

How the results depend on the processing

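With the slide as a replicate block, which the replicate numbers mark, members called higher and lower were 1 and 15 (cluster cells by GFP), 4 and 17 (endothelial cells by GFP), 10 and 6 (cluster against endothelial, GFP+), 5 and 3 (GFP-) and 3 and 8 (interaction), and all genes called were 6877, 11146, 10781, 5235 and 7091; the block ended no call of a member. In the same order, leaving out 1 array gave 0 to 1 higher and 6 to 14 lower of members and 3678 to 5734 genes, 3 to 4, 13 to 15 and 7219 to 10081, 3 to 8, 2 to 3 and 7462 to 9134, 2 to 4, 0 to 1 and 1607 to 4213, and 0 to 1, 1 to 5 and 3589 to 4656. Quantile normalization gave 4 and 8, 11 and 7, 11 and 4, 10 and 1, and 1 and 6, with 6056, 8481, 9432, 3851 and 5577 genes. The authors' normalized values gave 4 and 7, 11 and 7, 11 and 4, 10 and 1, and 1 and 6, with 6058, 8493, 9435, 3883 and 5591 genes. Normexp correction gave 0 members in all 5 (limma; at an unadjusted p under 0.05, 0 and 2, 1 and 2, 0 and 0, 1 and 2, and 1 and 1) and 127, 100, 137, 14 and 1 genes. Without a filter on dim probes the members were 1 and 5, 3 and 12, 3 and 2, 2 and 0, and 0 and 1, with 3792, 8194, 9069, 1466 and 2743 genes. With only the compared groups in the fit they were 1 and 7, 4 and 13, 3 and 2, and 3 and 0, with 2576 genes called among GFP- cells. The mean of a gene's probes gave 0 higher members in cluster cells (1 at an unadjusted p under 0.05) and 1 in the interaction. Trend and robust moderation gave 2 higher in cluster cells, 5 lower among GFP- cells and 6 higher in the interaction. Centring on the median of tested genes, chosen after seeing the data, gave 6 lower among GFP- cells. The cause of these differences was not tested. Directions turned in endothelial cells by GFP under quantile normalization and the authors' table for Ccnd3 (0.12 in both), Mcm3 (0.23), Mcm6 (0.20), Ccnb1 (0.16), Ccnb2 (0.03605 and 0.0359), Cdc20 (0.002154 and 0.002295) and the mitotic median (0.0191). Under normexp they turned there for Ccnd1 (0.02086), Ccnd3 (0.01203), Ccne1 (0.007505), Cdkn2c (-0.57), Mcm7 (0.11), Rrm1 (0.03934), Ccnb2 (0.15), Cdc20 (0.07013) and the medians of G1 (0.00977), S phase (0.11) and mitotic genes (0.11). Among GFP- cells normexp turned Ccnd1 (0.15), Cdkn2c (-0.45) and Pcna (0.04487), and in the interaction Mcm7 (-0.03383) and the S phase median (-0.19), which was also negative under quantile normalization (-0.0147) and the authors' table (-0.0141). The mean of probes turned Ccne1 in endothelial cells (0.02309), Cdkn1b among GFP+ cells (0.22) and the inhibitor median among GFP- cells (0.0373). The mitotic median among GFP+ cells was -0.0431 under quantile normalization, -0.0425 in the authors' table, -0.0377 with the stricter filter, -0.00815 with the mean of probes, and -0.0315 to 0.0761 when 1 array was left out (-0.00764 without the first GFP+ cluster array), and the inhibitor median of endothelial cells by GFP was -0.0818 to 0.0105 when 1 array was left out. Signal over background limits Aurkb, Ccne2 and Cdk6.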
